A study of Mus musculus with 17 samples.

Results

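Antigen presentation by MHC class II and the macrophage programme were followed through 8 genes in single cells of the mouse pancreas: Cd74, H2-Aa, H2-Ab1 and H2-Eb1 of the class II pathway, and Lyz2, Ctss, Csf1r and C1qb of myeloid cells. The 8 genes were taken as a list, chosen with earlier results of these data known, and all 8 were found among the 40824 genes of the deposited table of unique molecular identifier (UMI) counts, which holds 2999 cells in 17 libraries. The cells came from Ngn3-Cre; Rosa-RFP mice, in which cells with a history of Cre under the Ngn3 driver carry RFP. RFP-positive cells were sorted to enrich for pancreatic endocrine cells, picked singly by mouth pipette and sequenced with a modified STRT-seq protocol. Streptozotocin (STZ), a toxin of beta cells, was injected once into the abdomen at 200 mg/kg in males at 2 months of age after a night of fasting, and controls were given citrate buffer (Control, 3 libraries). STZ mice with insulin implants were taken at day 6, day 12, day 30 and day 42 (STZ_D6, STZ_D12, STZ_D30 and STZ_D42) and at months 2, 5 and 9 (STZ_M2, STZ_M5 and STZ_M9). STZ_D12 had 2 libraries and every other implanted time had 1, which gave 8 libraries. The implant of STZ_M9 was discontinuous in the last 2 months. STZ mice without implants were taken at month 2 (STZ_M2_NoIns, 2 libraries), and untreated mice at postnatal days 3, 12 and 21 (P3, P12 and P21, with 1, 2 and 1 libraries). A library is named below by its group and replicate, as STZ_D12_1. The labels do not say that replicates came from separate animals, so the p-values measure the spread between these libraries only.

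MHC class II molecules are pairs of an alpha and a beta chain that show peptides from the endosome to helper T cells. They are made mainly by dendritic cells, macrophages and B cells, with the invariant chain Cd74 as their chaperone, and the transactivator Ciita switches the genes on together through conserved promoter elements called X and Y, which bind the RFX and NF-Y complexes. The normal islet holds resident macrophages.

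H2-Aa encodes the alpha chain of the I-A molecule, H2-Ab1 its beta chain and H2-Eb1 the beta chain of I-E. The 3 genes lie close together on chromosome 17 (RefSeq, GRCm38.p6). The promoters of H2-Aa and H2-Eb1 are shown because the levels of the class II genes tracked each other in the cells described below. The 150 bases just before each gene's start are given 5′ to 3′ on the gene's own strand, with the X letters (CTNGCAAC) and then the Y letters (CTGATTGG) in capitals. H2-Aa lies on the minus strand at chr17:34287824-34287973 and H2-Eb1 on the plus strand at chr17:34305717-34305866.
H2-Aa: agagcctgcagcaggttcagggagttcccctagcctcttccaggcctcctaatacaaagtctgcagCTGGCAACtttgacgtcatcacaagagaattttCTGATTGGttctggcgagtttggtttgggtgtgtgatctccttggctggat
H2-Eb1: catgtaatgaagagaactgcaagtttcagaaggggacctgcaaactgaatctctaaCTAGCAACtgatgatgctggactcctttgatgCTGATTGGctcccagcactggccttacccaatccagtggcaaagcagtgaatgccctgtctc

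The X letters began 84 bases before the start of H2-Aa and 94 bases before that of H2-Eb1, and the Y letters 51 and 62 bases before it. The motifs do not overlap in either promoter. RefSeq promoters were matched for 5 of the 8 members, and those of Lyz2, Ctss and C1qb held neither motif in the 250 bases before the start on either strand. Among 32851 promoters the Y letters were in 3.83%, the X letters in 2.84% and both in 0.155%. The X letters were chosen with these promoters in view, and a match is a description of the letters only.

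Libraries held 22 to 295 cells and 1420536 to 26298456 UMIs. Cells were grouped by clustering with the 8 members left out, and clusters were named from marker genes: 39 immune-like cells, 114 ductal and 771 acinar cells, and 1012 beta, 270 delta, 599 alpha and 160 PP cells, with 34 cells of P3 unnamed. STZ_D12_1 stood apart from every other library in the immune markers: its 20 macrophage and monocyte genes summed to 1496 CPM (UMIs for every 1000000 UMIs of the library), against 282 in STZ_D42_1, 231 in P3_1 and 29.1 to 124 in the other 14 libraries. Markers of other cell types were also high there: 9 endothelial and stromal genes summed to 178 CPM, against 2.11 to 48.4 in the other 16 libraries, and 9 ductal genes to 3621 CPM, against 454 to 2643. At day 12 against the other implanted times the median log2 difference was 6.63 for the endothelial and stromal genes and 6.30 for the macrophage genes, beside 0.11 over all genes. Their part in the results below was not tested. Results that rest on STZ_D12_1 are therefore given with and without it. Pools of amplified cDNA could be read from the file names for 10 libraries; each of the 36 pools held 1 library, and STZ_D12_1, STZ_D42_1 and Control_1 were each alone in a sequencing run, so run and group cannot be told apart for them. No cell name was shared between libraries.

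The class II genes were concentrated in 1 library. STZ_D12_1 held 70.2% of all Cd74 UMIs, 68.0% of those of H2-Aa, 72.5% of those of H2-Ab1 and 67.7% of those of H2-Eb1. It also held 64.7% of the UMIs of Lyz2, 66.7% of Ctss, 64.7% of C1qb and 44.1% of Csf1r. Lyz2 encodes lysozyme M, Ctss the protease cathepsin S that trims the invariant chain, C1qb a chain of complement C1q, and Csf1r the receptor for the macrophage growth factor CSF1. They lie apart in the genome, Ctss on chromosome 3, C1qb on chromosome 4 and Lyz2 on chromosome 10, while Csf1r and Cd74 are both on chromosome 18. Csf1r departed from the rest because P3_1 held 29.3% of its UMIs, against 12.1% of those of C1qb and 4.19% of those of Lyz2.

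Cd74 summed over all cells of a library stood at 688 CPM in STZ_D12_1 and 20.96 CPM in STZ_D12_2. The 3 Control libraries stood at 15.7, 0.695 and 0 CPM. Over the 8 implanted libraries Cd74 ran from 0 CPM in STZ_M9_1 through a median of 5.30 CPM to the value in STZ_D12_1. Both day 12 libraries were above all controls, but Control_1 was closer to STZ_D12_2 than STZ_D12_2 was to STZ_D12_1. In such sums fewer cells that hold a gene and less of its RNA per cell cannot be told apart.

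H2-Aa stood at 687 CPM in STZ_D12_1, 19.0 in STZ_D12_2, and 12.8, 0.214 and 0 in the controls. H2-Ab1 stood at 744 and 13.4 CPM at day 12 and at 11.3, 0.0535 and 1.41 in the controls. The beta chain of I-E followed the same order: H2-Eb1 was at 650 and 14.1 CPM at day 12 and at 11.8, 0.802 and 0 in the controls. In each of the 3 genes the second day 12 library lay just above the highest control. STZ_D42_1 was the only other library above 25 CPM for any class II member, with 97.6 CPM of Cd74, 119 of H2-Aa, 102 of H2-Ab1 and 116 of H2-Eb1. The 4 genes together gave 2768 CPM in STZ_D12_1, 435 in STZ_D42_1, 67.4 in STZ_D12_2, 51.6 in Control_1, 39.3 in STZ_D6_1, 12.9 in P21_1, 6.84 in STZ_M2_1 and at most 2.65 in the remaining 10 libraries.

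The myeloid members separated the 2 day 12 libraries further. Lyz2 stood at 984 CPM in STZ_D12_1 and 0.95 in STZ_D12_2, and at 4.19, 0 and 0 in the controls. C1qb stood at 320 and 0.615 CPM at day 12 and at 5.70, 0 and 0 in the controls. For both genes STZ_D12_2 lay within the range of the controls. Csf1r likewise was at 61.9 and 0.391 CPM at day 12 and at 1.61, 0.535 and 0 in the controls. Ctss, which dendritic cells and B cells also make, was at 259 and 4.36 CPM at day 12 and at 3.75, 0 and 0 in the controls, so that only this myeloid member was above all controls in both day 12 libraries. Summed, the 4 myeloid members gave 1624 CPM in STZ_D12_1, 299 in STZ_D42_1, 112 in P3_1, 27.6 in STZ_D6_1 and at most 15.3 in the other 13 libraries.

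**Figure D1:**
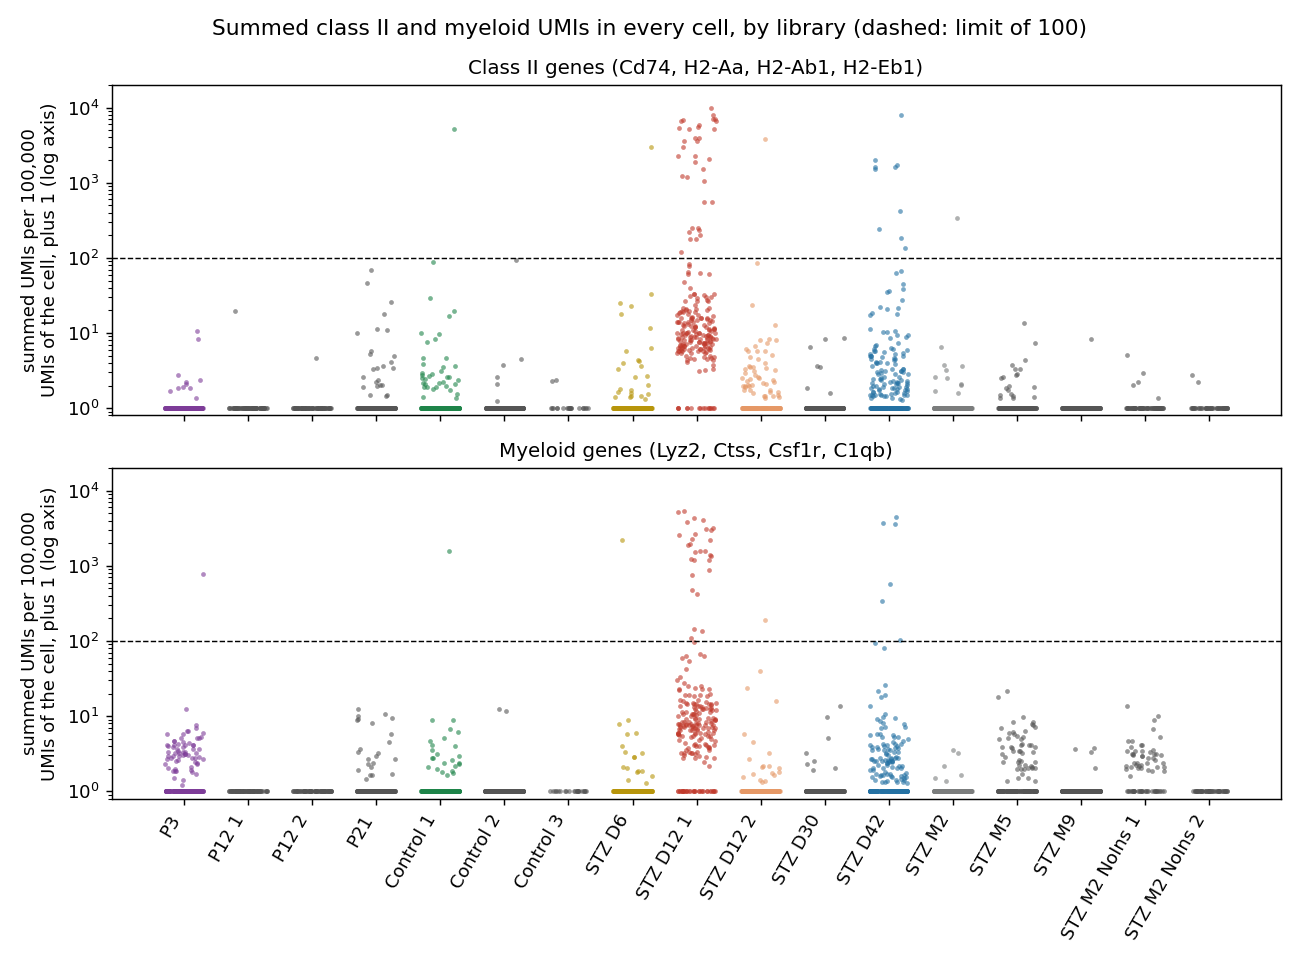
Summed UMIs of the 4 class II genes (upper panel) and of the 4 myeloid genes (lower panel) in every cell, per 100,000 UMIs of that cell plus 1 on a log axis, with libraries along the x axis and 1 point per cell. The dashed line is the limit of 100 used to count cells: 35 cells of STZ_D12_1 and 10 of STZ_D42_1 pass it for class II, and no other library has more than 1.

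Day 12 was compared with the controls, and with the other implanted times, on UMI sums per library with edgeR's quasi-likelihood test. Day 12 was singled out with results of these data known, so its p-values, here and below, are not those of a contrast set beforehand. In the first comparison the fitted log2 differences of all 8 members were positive, from 5.29 (Csf1r) to 8.34 (Lyz2), and none passed a Benjamini-Hochberg adjusted p of 0.05; 0.819% of the 18060 genes tested were called, and 0.133% as higher. The adjusted p was lowest for H2-Eb1 (0.0542; log2 difference 6.32, SE 1.32), Cd74 (0.0628; 6.08, SE 1.31) and H2-Aa (0.0754; 6.39, SE 1.45). Unadjusted, all 8 had p under 0.05, as had 2691 of the 18060 genes, and DESeq2 called 2 of the 8 and 814 genes in all. The median log2 difference of the members was 6.36, beside 0.08 over all genes tested.

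These calls turned on single libraries and on settings. Leaving out STZ_D12_2 kept all 8 log2 differences positive. That fit leaves day 12 with STZ_D12_1 alone, so its calls are not read here. The range of calls over left-out libraries, which is wide, is given in the last section. Leaving out Control_1 raised the members called to 3, and a fit without the filter on low counts raised them to 8. The genes called in all by the unfiltered fit, and their range over left-out libraries, are given in the last section as the background. In that unfiltered fit the quasi-likelihood test gave Cd74 an unadjusted p of 4.49e-67, beside 0.000625 with the filter. The 2 day 12 libraries stand at 688 and 20.96 CPM, a spread that so small a p does not reflect. Calls without the filter, here and below, are given as a setting only. Leaving out STZ_D12_1 left none called and turned Lyz2 to -0.55, Csf1r to -0.87 and C1qb to -1.48 on the log2 scale. The labels name the replicate number as a batch, and with it as a block in the model edgeR called 6 of the 8, among 144 genes. Within batch 1 STZ_D12_1 was above Control_1 in all 8 genes, and within batch 2 STZ_D12_2 was above Control_2 in all but Csf1r, for which the values were 0.391 and 0.535 CPM. With the 39 immune-like cells taken out of the sums, 4 of the 8 members were called. These sums still held cells of other classes above the limits defined below (6 delta, 5 acinar, 3 ductal, 2 PP, 1 alpha and 1 beta). The genes called in all by that fit are not given here, so the count stands without a background.

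Against the 6 other implanted times, fitted log2 differences ran from 4.58 for Csf1r to 9.47 for Lyz2. These sizes depend on how the model treats a count of 0, since some of the other times had no UMI of a member. None of the 8 was called by edgeR, with 0.0111% of genes called in all and adjusted p from 0.0744 (H2-Eb1) to 0.166 (Csf1r), while all 8 had an unadjusted p under 0.05, as had 1336 of 18060 genes. DESeq2 called 4 of the 8 among 60 genes, and edgeR called 7 with the batch block among 85 genes. Without the low-count filter edgeR called 8, and the genes called in all by that fit are given in the last section. With STZ_D12_2 left out, all 8 log2 differences stayed positive. Leaving out STZ_D12_1 turned Csf1r to -1.62. Over all 8 implanted libraries against the controls, 0 of the 8 members were called by edgeR, by DESeq2 or with the batch block, where edgeR called 9.09% of genes and 4.38% as higher, and none had an unadjusted p under 0.05 in any of the 3 fits. The adjusted p values in edgeR were 0.203 to 0.293.

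Sums over a library rest on few cells here, so cells were counted. A cell was called a class II cell when the 4 class II genes reached 100 UMIs per 100000 of its UMIs, and a myeloid cell when the 4 myeloid genes did. By this measure 49 cells were class II cells and 39 myeloid cells, 37 were both, and 51 of the 2999 were either. These 51 cells held 93.7% of all Cd74 UMIs, 95.8% of H2-Aa, 93.8% of H2-Ab1, 94.7% of H2-Eb1, 95.2% of Lyz2, 94.3% of Ctss, 93.2% of C1qb and 80.6% of Csf1r. The limit was clear of most cells: 17 cells lay between 50 and 200 for class II and 13 for the myeloid sum, while 34 and 27 cells reached 1000.

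STZ_D12_1 held 36 of the 51 cells and STZ_D42_1 held 10, and Control_1, STZ_D6_1, STZ_D12_2, STZ_M2_1 and P3_1 held 1 each. The other 10 libraries held none. Class II cells were 16.1% of the cells in STZ_D12_1 (35 of 218) and 0.549% in STZ_D12_2 (1 of 182), beside 4.17% in STZ_D42_1 (10 of 240), 0.339% in Control_1 (1 of 295) and 0 in Control_2 and Control_3. The 2 day 12 libraries differed from each other by more than STZ_D42_1 differed from the controls. As said above, day 12 was singled out with results of these data known. The mean share at day 12 was 7.94 percentage points above that of the other 15 libraries (exact two-sided permutation test over libraries, p = 0.0221, with 136 arrangements and a smallest p of 0.00735). Without STZ_D12_1 the difference was 0.185 points (exact p = 0.875), and without STZ_D12_2 it was 15.7 points (exact p = 0.0625, the smallest that 16 arrangements allow). For the 8 implanted libraries against the 3 controls the difference was 2.60 points (exact permutation p = 0.394). Control_1 thus held 1 class II cell without STZ.

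**Figure D2:**
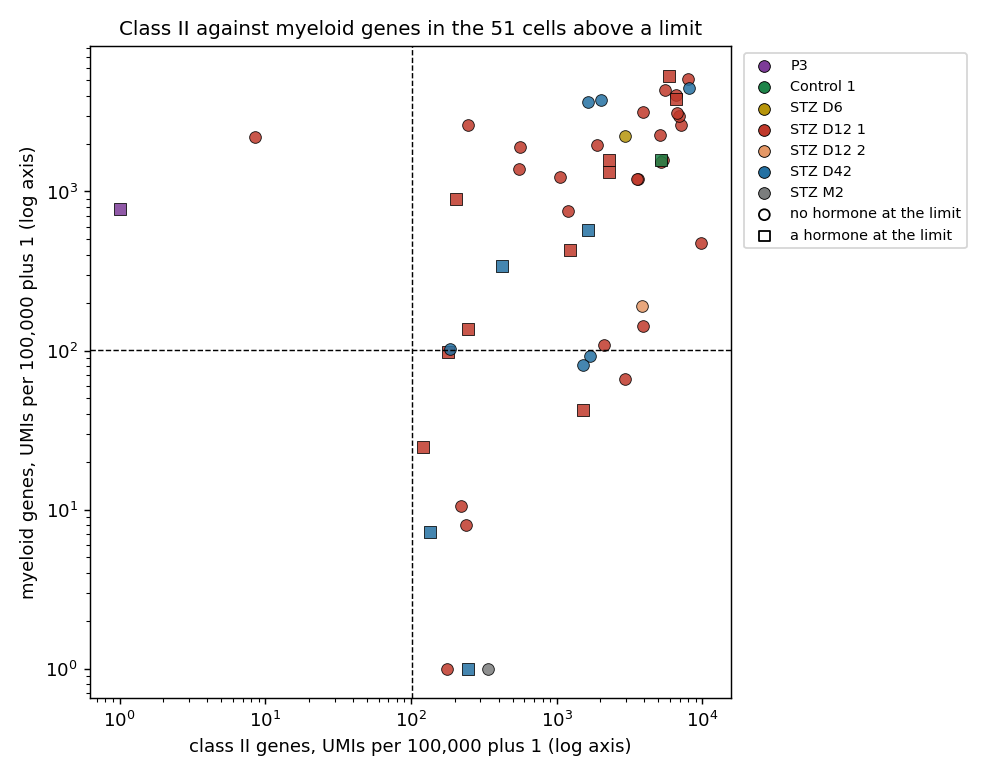
Each point is 1 of the 51 cells above a limit, with the class II sum on the x axis and the myeloid sum on the y axis, both in UMIs per 100,000 plus 1 on log axes; colours are libraries, squares are cells with a hormone at or above 1,000 per 100,000, and the dashed lines are the limits of 100. The 37 cells in the upper right are above both limits, 12 are above the class II limit only and 2 above the myeloid limit only.

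Of the 51 cells, 33 were in the immune-like cluster, 6 in the delta class, 5 in the acinar, 3 in the ductal, 2 in the PP, 1 in the alpha and 1 in the beta class. The members had no part in the clustering, but other immune genes did. High cells of the immune-like class had 12057 to 72697 UMIs (median 27463), and class II reached up to 9858 per 100000 in them. Cd74 had a median of 781 per 100000 in these 33 cells, H2-Aa of 1056, H2-Ab1 of 936 and H2-Eb1 of 835. Lyz2 had a median of 1037, C1qb of 458, Ctss of 265 and Csf1r of 65.2, and Lyz2, Csf1r and C1qb were at 0 in the lowest of them.

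The 37 cells above both limits had the genes of macrophages. Tyrobp, an adaptor of myeloid receptors, had a UMI in 37 of 37 and Ctss in 37, Ptprc, the leukocyte antigen CD45, in 36, Cd68, a lysosomal protein of macrophages, in 35 and C1qa, another C1q chain, in 34. Adgre1, the macrophage antigen F4/80 (listed as Emr1), and Mrc1, the mannose receptor, were each in 30, while Ccr2, the monocyte chemokine receptor, was in 18. C1qa also had a UMI in 57.7% of cells outside the immune-like class and the limits, so its presence separates less than that of Adgre1, found in 1.33% of them. Of the 37 cells 28 came from STZ_D12_1, 6 from STZ_D42_1 and 1 each from Control_1, STZ_D6_1 and STZ_D12_2. The cell of STZ_D12_2 stood apart among them: its class II sum was 3867 per 100000, with 49 UMIs of Ctss, 3 of Lyz2 and none of Csf1r and C1qb.

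Among the 12 cells above the class II limit only, 5 had 10 or more UMIs of Cd79a, the signalling chain of the B-cell receptor. Of these, 2 immune-like cells of STZ_D42_1 had 170 and 109 UMIs of Cd79a and 320 and 139 of Igkc, the kappa light chain. A delta-class and an alpha-class well of the same library had 21 and 14 UMIs of Cd79a and 24 and 13 of Igkc. In 1 immune-like cell of STZ_D12_1 Igkc had 5115 UMIs and Igha, the IgA heavy chain, 4649, with a class II sum of only 219 per 100000. The 3 ductal-class cells, 2 in STZ_D12_1 and 1 in STZ_M2_1, had class II sums of 175 to 336 per 100000 with 0 to 2 myeloid UMIs. Krt19, the duct keratin, had 78 UMIs in 1 of the day 12 cells, 0 in the other and 38 in the STZ_M2_1 cell.

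The 4 class II genes tracked each other closely and the myeloid genes less so. Across the 51 high cells, on a log2 scale of UMIs per 100000 plus 1, Pearson's r was 0.90 to 0.98 between class II genes. Lyz2, Csf1r and C1qb were joined among themselves at r of 0.90 to 0.93, and each of them with each class II gene at 0.25 to 0.38. Ctss stood between the groups, with r of 0.56 to 0.67 to the class II genes and 0.73 to 0.74 to the other 3. The 51 cells were chosen by passing either sum, which bears on r between the 2 sets. Over all 2999 cells r was 0.67 to 0.79 between each class II gene and Lyz2, Csf1r or C1qb, 0.88 to 0.91 between class II genes, and 0.74 to 0.85 among Lyz2, Csf1r and C1qb. The cells share libraries, and these values carry no test.

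The 10 genes most like the class II sum over all 2999 cells, by the same measure and among genes with a UMI in at least 20 cells, began with H2-DMb1 (r = 0.73), a chain of the peptide loader H2-DM, Tyrobp (0.73), the Fc receptor Fcgr2b (0.71), Laptm5 (0.71) and Ly86 (0.70). Pld4, Spi1, Cd53, Coro1a and Cd52 followed. For the myeloid sum they began with Tyrobp (0.79), C1qc (0.79), Fcgr3 (0.77), Fcgr2b (0.76) and Laptm5 (0.75), followed by Ccl9, Ly86, Emr1, Cd53 and Aif1. Tyrobp, Fcgr2b, Laptm5, Ly86 and Cd53 were in both lists.

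The rest of the class II pathway was found in the high cells gene by gene. Of 17 further pathway genes 16 had a UMI in at least 1 of the 51 cells. H2-DMb1 was in 43 of 51 and H2-DMa in 40, against 2.18% and 6.93% of the other cells. Ciita had a UMI in 22 of 51 high cells and in 5 of 2942 others. Cd86, a costimulator of T cells, was in 33 of 51 and in 13 of the others. Rfx5, a subunit of the RFX complex that binds the X element, had no UMI in any of the 51 cells. It had one in 91 of the others (3.09%, 213 UMIs in all), a share too low for its absence from 51 cells to say much. Rfxap and Rfxank, also of the RFX complex, were in 23.5% and 13.7% of high cells, against 24.8% and 17.9% of the others. Ctsl, a protease that also trims the invariant chain, was at 34.7 per 100000 in high cells and 35.2 in the others, and so did not follow the class II genes.

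Of 20 macrophage and monocyte genes all 20 were found in a high cell and 18 in at least 50% of them. The 10 dendritic-cell genes were each found in a high cell, with Irf8, also made by macrophages and B cells, the only one past 50%. Flt3 was in 8 of 51, Xcr1 in 1 and Siglech in 1. Of 9 T-cell and NK-cell genes none passed 50%, and Cd3e, Cd3g and Trac were at 0 in the high cells. The neutrophil and mast-cell genes Ly6g and Mcpt4 had no UMI in the whole table. Of the 6 immune-like cells under both limits, 5 had 3 to 8 T-cell or NK-cell genes, 3 in STZ_D12_1 and 2 in STZ_D42_1. The other, in Control_2, had 591 UMIs of Dcn, a gene of fibroblasts.

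Between day 12 and the controls, edgeR called no gene of the macrophage, class II pathway, dendritic, B-cell, T-cell and NK-cell, neutrophil and mast-cell or interferon lists. Over all 18060 genes tested, 2691 had an unadjusted p under 0.05 and DESeq2 called 814, against which the following counts stand. Of 20 macrophage genes tested 19 had an unadjusted p under 0.05 and DESeq2 called 5, with a median log2 difference of 5.95 beside 0.08 over all genes. Of 16 class II pathway genes tested 10 had an unadjusted p under 0.05 and DESeq2 called 3, with a median of 3.93. The interferon-response genes, which endocrine cells can also make, had a median of 1.15, with 7 of 16 at an unadjusted p under 0.05 and 1 called by DESeq2. In the other lists 4 of 9 dendritic, 5 of 7 B-cell, 4 of 8 T-cell and NK-cell and 4 of 6 neutrophil and mast-cell genes had an unadjusted p under 0.05 in edgeR, and DESeq2 called 1, 2, 0 and 1 of them.

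Across all implanted libraries against the controls, edgeR's quasi-likelihood test called 3 genes of these lists: 1 of 12 class II pathway, 1 of 2 B-cell and 1 of 1 neutrophil and mast-cell genes, and none of 18 macrophage, 3 dendritic, 3 T-cell and NK-cell and 15 interferon genes. With 9.09% of all genes called, these counts do not set the lists apart. Ctsl rose by 1.07 on the log2 scale (SE 0.26, adjusted p = 0.0245), from 238 CPM ± 60.2 (SD, n = 3) in controls to 384 ± 33.1 (SD, n = 8). Kit, a receptor of mast cells that other cells also make, rose by 1.93 (SE 0.38, adjusted p = 0.0104). Cd79a fell by 2.34 (SE 0.59, adjusted p = 0.0294), and had a UMI in 16.2% of cells outside the limits and the immune-like class. Of 18 macrophage genes tested none was called by edgeR or DESeq2, with 0 at an unadjusted p under 0.05 in edgeR and 2 in DESeq2.

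Whether the members stood in separate cells or in wells with hormones was read from Ins1, Ins2, Gcg, Sst, Ppy and Pyy. A hormone at 1000 or more per 100000 UMIs was found in 16 of the 51 high cells (31.4%, exact 95% binomial interval 19.1 to 45.9%), and in 75.8% of all cells. By class, 10 of 10 high cells of an endocrine class, 2 of 5 acinar, 0 of 3 ductal and 4 of 33 immune-like cells had one. Hormones are among the genes that named the endocrine classes, and 2036 of all 2041 endocrine-class cells passed the limit, so the first count follows from the class. Sst led in 5 of the 16, Ppy in 5, Gcg in 3 and Ins2 in 3. The share depends on the limits: it was 80.4% at a hormone limit of 300 and 19.6% at 3000, and 42.9% at a class II and myeloid limit of 30. In STZ_D12_1 the highest hormone had a median of 429 per 100000 in the 25 high immune-like cells, 293 in 56 acinar cells and 383 in 31 ductal cells, with median depths of 24233, 113742 and 23869 UMIs. The highest hormone reached 2651 per 100000 in the immune-like, 14459 in the acinar and 1155 in the ductal cells.

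The wells that held both programmes were mostly in STZ_D12_1 (10 of its 36 high cells) and STZ_D42_1 (4 of its 10). In 4 delta-class wells of STZ_D12_1 Sst ran from 5188 to 11135 per 100000, beside a class II sum of 120 to 1510 per 100000 and a median Sst of 12892 in the 32 other delta cells. The 4 wells held a median of 4776 genes, against 3682 in the 32 others, at similar depth (29100 and 26942 UMIs). The 2 PP-class wells of STZ_D12_1 held 3771, against 3712 in the 27 others (31709 and 32960 UMIs). Their median Ppy was 20490 per 100000, against 17011 in the others. Endocrine genes, summed as a list, were lower in these 2 wells, at 934 to 1649 per 100000 against a median of 2441. The 4 delta-class wells had a median of 1508 for this sum, against 2487 in the 32 others. In STZ_D42_1 the 2 delta-class wells held 5422 genes against 3874, at 53936 and 28351 UMIs. The alpha-class well there held 5548 against 4001, at 32221 and 30530 UMIs. Its Gcg was at 2989 per 100000, against a median of 12871 in the other alpha cells. Its endocrine sum was 1077, below the lowest of them (1500). The 2 delta-class wells of STZ_D42_1 had a median endocrine sum of 2560, against 2508 in the other delta cells, and so were not lower. A PP-class well had 12907 per 100000 of Ppy with class II at 2276 and the myeloid sum at 1331, and another had 28074 of Ppy with class II at 179. In STZ_D42_1 a delta-class well had 8771 of Sst with class II at 1629 and the myeloid sum at 571, and 61 UMIs of Mrc1. No beta-class cell of either library passed a limit. Among immune-like cells, the highest hormone in STZ_D12_1 was Gcg at 2651 per 100000 in a cell with class II at 2291.

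Mixed wells were not limited to hormones. The 5 acinar-class high cells had 1505 to 5928 UMIs of Prss2, a trypsinogen, with 15 to 86 UMIs of Tyrobp, and 2 of them, at 343090 and 250288 UMIs, were far deeper than the immune-like cells. No doublet caller was run, and the part of wells with more than 1 cell in these values was not tested. The Ins2 of the Control_1 immune-like cell (3673 per 100000) lay above the 22 acinar cells of that library (840 to 2475) and within its 18 ductal cells (598 to 6407).

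**Figure D3:**
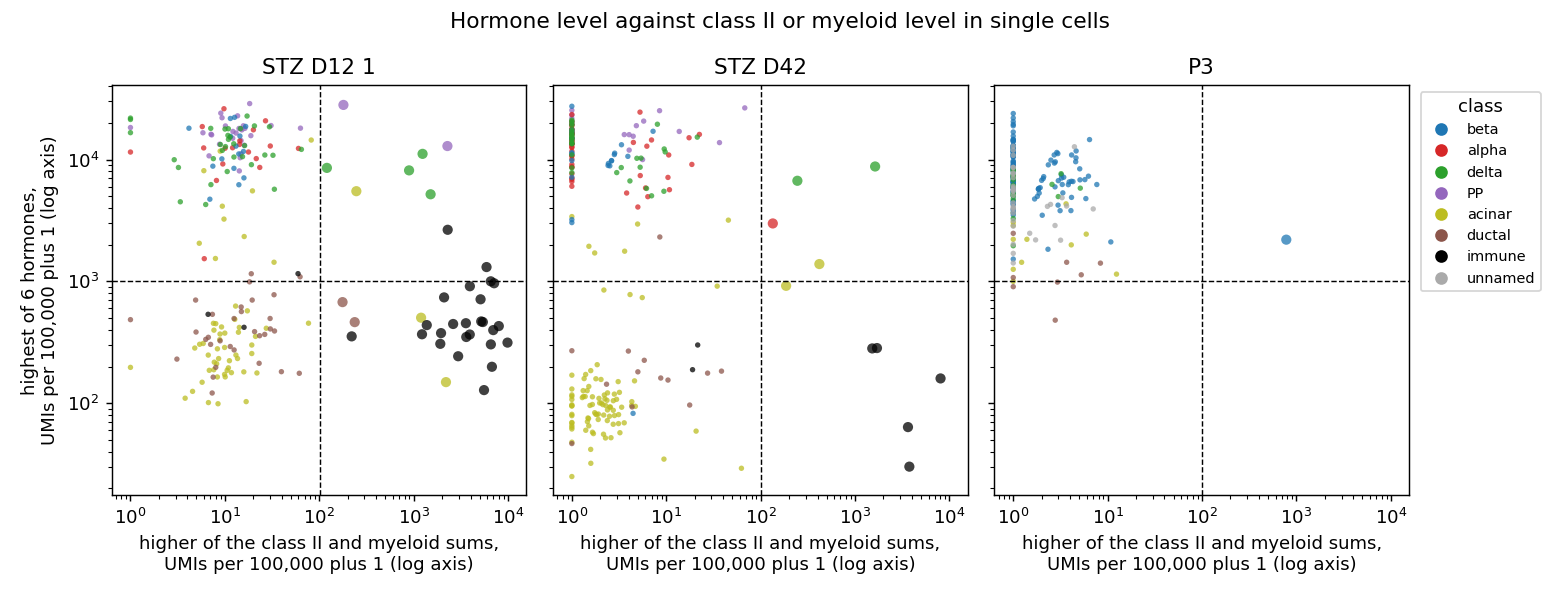
The highest of 6 hormones (y axis) against the higher of the class II and myeloid sums (x axis) in each cell of STZ_D12_1, STZ_D42_1 and P3_1, both in UMIs per 100,000 plus 1 on log axes; colours are classes, large points are cells above a limit, and the dashed lines are the limits of 100 and 1,000. Most high cells are immune-like and lie under the hormone limit, and the upper right of the first 2 panels holds the delta, PP and alpha wells with 2 acinar and 3 immune-like ones, as that of the last panel holds the beta-class well of P3.

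P3 carried the myeloid genes without class II, in 1 well. This well of 245033 UMIs fell in the beta class and held 682 UMIs of Lyz2, 634 of C1qb, 438 of Csf1r and 155 of Ctss, and none of Cd74, H2-Aa, H2-Ab1 or H2-Eb1. It held 88.8% of the Lyz2 UMIs of P3_1, 87.8% of those of C1qb, 88.5% of those of Csf1r and 92.8% of those of Ctss. Other macrophage genes stood beside them: Pf4, a chemokine, had 1036 UMIs, Fcna, a ficolin, 592, Mrc1 361, F13a1, a coagulation factor, 275 and Folr2, a folate receptor, 187, while Ccr2 had none. In the 37 cells above both limits, Csf1r had 50.7 UMIs per 100000 and Lyz2 875, against 179 and 278 in the P3 well, so the balance of the 2 genes differed.

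Insulin in the same well was low for a beta-class cell of P3 but inside the range of the others. Ins1 was at 1906 and Ins2 at 2200 per 100000, against medians of 6687 and 7197 in the 130 other beta-class cells of P3, whose lowest values were 1031 and 1524. Nkx6-1, a beta-cell transcription factor, was at 1.22 per 100000 (median 16.8 in the others), and Slc2a2, the glucose transporter of beta cells, at 0.408 (median 23.1), and in both genes the lowest of the others was at 0. Acinar cells of P3 also had Ins2 at a median of 2215 per 100000 (13 cells, median depth 259071 UMIs). Chga, the secretory granule protein chromogranin A, was at 318 per 100000, against a lowest value of 272 and a median of 979 in the others. The well was inside the full range of the other beta-class cells in all 5 genes. For Ins2 (2200) and Chga (318) it lay below the central 95% of those cells, which began at 2400 and 450 per 100000. For Ins1 (1906) it lay above that lower bound (1294). Nkx6-1 and Slc2a2, with a lowest value of 0 in the others, could not place any well below the range. The well is called here by its cluster.

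Against the controls, none of the 8 members was called in P3 by edgeR (0.0221% of genes called, 0.00554% as higher) or DESeq2, with 2 of 8 at an unadjusted p under 0.05 in edgeR (1529 of 18060 genes) and 1 in DESeq2 (1649 genes). P3 is 1 library, which the fit assumes to vary like the other groups. Csf1r had the lowest adjusted p of the myeloid members (0.513; log2 difference 4.15, SE 1.51), at 25.7 CPM in P3_1 and 1.61, 0.535 and 0 in the controls. Lyz2 was 3.86 higher, C1qb 3.38 and Ctss 1.83 on the log2 scale, all resting on the 1 well. H2-Eb1 had no UMI in P3_1. With the batch block edgeR called 13 genes, Cd74, H2-Aa and H2-Eb1 among them as lower in P3, and without the low-count filter 509 genes with all 8 members, under the same assumption. Without Control_1, whose class II UMIs lay largely in 1 cell, H2-Aa stood at 0.24 and H2-Ab1 at 0.24.

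Outside the cells above the limits, the members were spread over cells of every class, mostly with few UMIs per cell. The spread was not even. At full depth and with all cells of a class counted, Csf1r had a UMI in 29.8% of the 114 ductal cells. In the endocrine and acinar classes its share was 1.85 to 5.84%. Cd74 had one in 46.5% of ductal cells, against 1.98 to 13.1% in those classes. STZ_D12_1 held 33 of the ductal cells. The thinned shares that follow cover endocrine and acinar cells only. Outside the 51 cells 730 of 2948 had at least 1 UMI of a member, 60.7% of them with at most 3. To compare libraries at 1 depth, each cell was thinned to 20000 UMIs and shallower cells were left out, which removed 21 of the 98 endocrine cells of STZ_D12_1 and 0 to 15 elsewhere. A class II UMI then remained in 83.1% of endocrine cells of STZ_D12_1 (64 of 77) and in 81.4% of its acinar cells (48 of 59). In STZ_D42_1 the shares were 22.9% and 16.7%, and in STZ_D12_2 13 of 100 cells and 9.86%. These cells include those above the limits. Without them, a subset added after seeing the data, the endocrine and acinar shares were 81.9% and 80.4% in STZ_D12_1 (59 of 72 and 45 of 56 cells) and 20.8% and 14.9% in STZ_D42_1, and STZ_D12_2 had no such cell in either class. The exact binomial intervals of the 2 classes overlapped in each of the 3 libraries. They cover counting error among the cells of 1 library only and are no test of equal shares. The source of these UMIs was not tested. Before thinning, 89.8% of endocrine cells in STZ_D12_1 had such a UMI and 98.3% of the deeper acinar cells.

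The endocrine share of the other libraries was at most 4.88%, and in the controls it was 3.59%, 1.08% and 0. At day 12 it was 44.8 points above the other 15 libraries (exact two-sided permutation test, p = 0.0147), and 9.74 points without STZ_D12_1 (exact p = 0.125). Without the cells above the limits the difference was 44.4 points (exact p = 0.0147). Implanted STZ libraries were 14.9 points above the controls (exact p = 0.345). The myeloid members gave the same order at the top, with 75.3% of endocrine and 76.3% of acinar cells in STZ_D12_1. They differed in STZ_M5_1, at 17.1% and 23.1%, in P3_1, at 16.6% of endocrine cells, and in STZ_M2_NoIns_1, at 14.9%, none of which had a class II share over 4.88%.

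**Figure D4:**
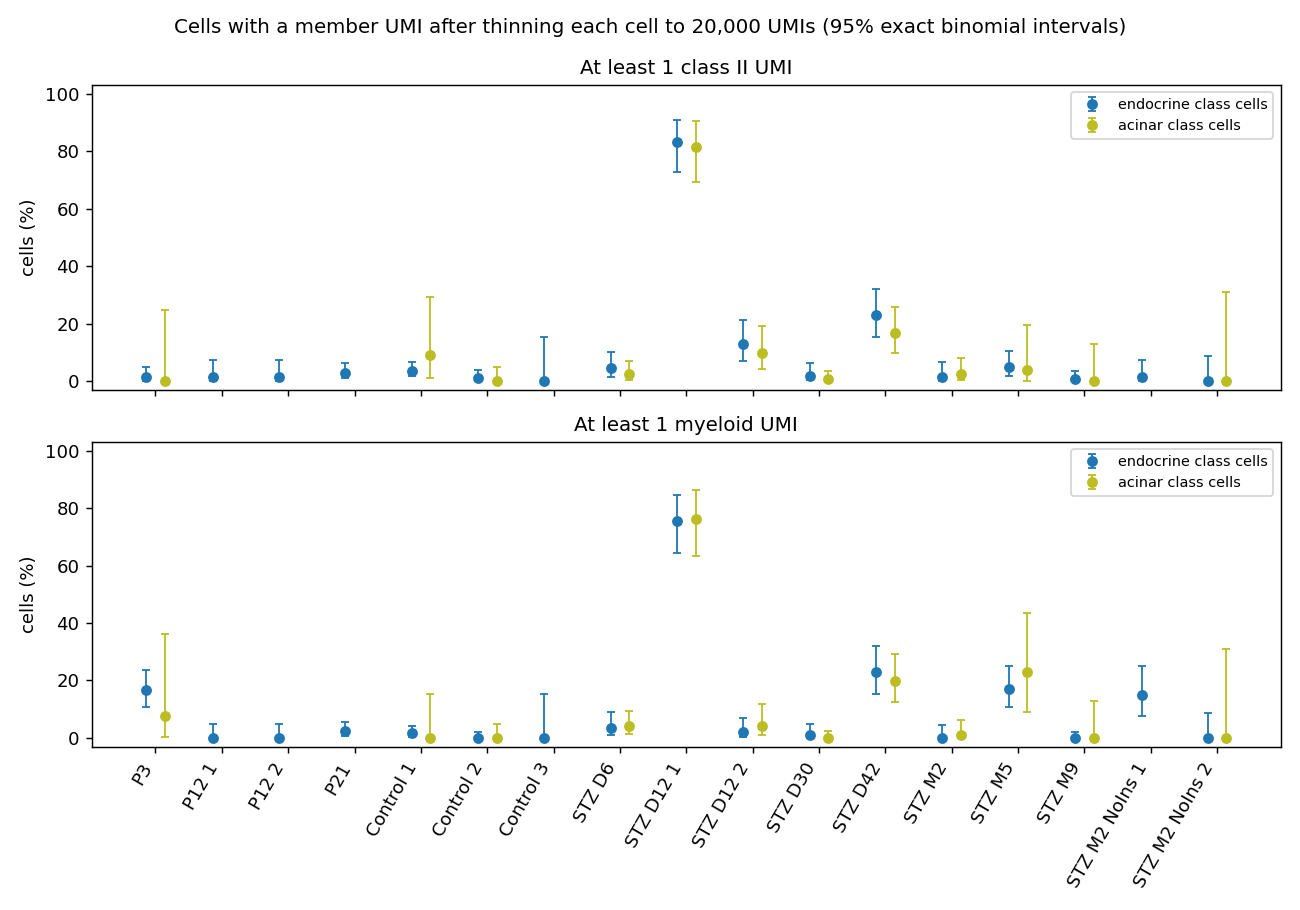
Share of endocrine-class and acinar-class cells with at least 1 UMI of a class II gene (upper panel) and of a myeloid gene (lower panel) in each library after every cell was thinned to 20,000 UMIs; bars are exact 95% binomial intervals, which cover counting error only. Acinar points are shown for libraries with at least 10 acinar cells, and both classes are over 75% in STZ_D12_1 in both panels.

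The share of other cells with a class II UMI differed between the pools of amplified cDNA. These shares were taken at full depth, and the pools differed in depth. In STZ_D12_1 the pool at 96.2% had a median of 65309 UMIs and that at 86.2% had 27813. In STZ_D42_1 the pool at 100% had 91792, that at 42.2% had 32022 and that at 34.5% had 91451. All 4 pools of STZ_D12_1 held high cells (17, 7, 9 and 3), and 86.2 to 96.2% of their other cells had a class II UMI. In STZ_D42_1 the 4 pools with high cells were at 41.7 to 100% and the 1 pool without at 34.5%. Over all libraries the median was 52.2% in 11 pools with a high cell (5.26 to 100%) and 4.41% in 25 pools without one (0 to 34.5%), a contrast that is mostly one of STZ_D12_1 and STZ_D42_1, which hold 8 of the 11, with other libraries. Within the other libraries the pool with the high cell was not regularly the highest. In STZ_D6_1 it was at 11.9% and another pool at 13.5%, and in STZ_M2_1 it was at 5.26% and another at 10.5%. In Control_1 it was at 25.6% with 31 class II UMIs in its other cells, and a pool without a high cell was at 10 of 50 cells with 121 such UMIs. A pool of STZ_M5_1 had a myeloid UMI in 73.5% of 49 cells and no high cell. The part of the pool and that of depth in these values were not tested.

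The make-up of these low UMIs by gene is given beside that of the high cells of the same library. In STZ_D12_1 Lyz2 made up 22.4% of the UMIs of the 8 genes in high cells, 23.3% in all others and 25.9% in the other endocrine cells. C1qb made up 7.20%, 9.15% and 8.18%. In P3, where class II was almost absent, the well held 35.7% Lyz2, 33.2% C1qb and 22.9% Csf1r, and the other 203 cells 30.9%, 31.7% and 20.5%. STZ_D12_1 and P3 differed from each other in make-up by more than high and other cells did within each. STZ_D42_1 was less alike, with a smaller share of Lyz2 in its other cells than in its high cells. Control_1 was also less alike, with Cd74 at 20.8% in its high cell and 39.4% in its other cells. The source of the low UMIs was not tested. STZ_M2_NoIns_1 had no high cell, and Lyz2 made up 67.9% of its 78 UMIs.

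**Figure D5:**
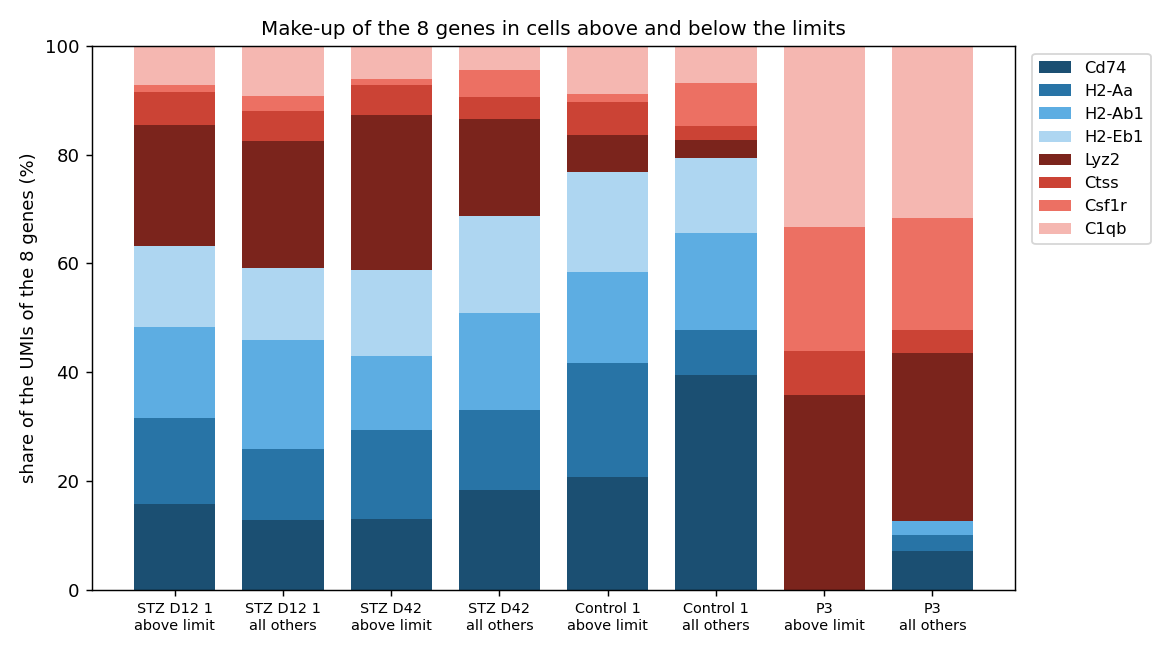
Share of the UMIs of the 8 genes (y axis, %) taken by each gene in cells above a limit and in all other cells of STZ_D12_1, STZ_D42_1, Control_1 and P3_1. Blue segments are class II and red segments myeloid genes; the 2 bars of P3 are mostly red and those of the other 3 libraries at least 50% blue.

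Within the named endocrine classes no member was called. In beta-class cells summed by library, all 15 beta cells of STZ_D12_1 had a class II UMI, 59 UMIs in all. The class II sum was 81.2 CPM there, 7.50 in STZ_D12_2 and 1.90, 0.356 and 1.46 in the controls. Day 12 against controls gave positive log2 differences for all 8 members, with adjusted p from 0.132 (Lyz2, 6.26, SE 1.61) to 0.892 (Csf1r, 1.95, SE 2.24). None was called by edgeR (0.527% of genes called, 0.323% as higher; 6 of 8 and 1139 of 13294 genes at an unadjusted p under 0.05) or by DESeq2 (3 of 8 and 1065 genes). Without STZ_D12_1 Lyz2 turned to -3.41, Csf1r to -1.96 and Ctss to -1.93, since beta cells of STZ_D12_2 held none of the 3. A fit without the low-count filter called 3 members, and the genes it called in all are given in the last section. Over all implanted libraries against controls none of the 8 passed the filter on low counts in beta cells, where 2.63% of genes were called and 1.57% as higher. In alpha cells 5 of the 8 passed it and none was called (0% of genes called by edgeR, with 541 at an unadjusted p under 0.05, and 2 genes called by DESeq2). Of the 5 members 3 had an unadjusted p under 0.05 in edgeR and 0 in DESeq2, and 4 of the 5 had no UMI in the 2 control libraries with enough alpha cells, so no fold is given. H2-Eb1, the other, was at 4.44 CPM ± 6.73 (SD, n = 8) in alpha cells of implanted libraries and at 0.308 ± 0.435 (SD, n = 2) in controls.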

How the data were processed

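The authors deposited 1 table of UMI counts per gene and cell. The submitters' processing notes name UMI-tools 0.5.0, TopHat2 2.1.0, SAMtools 1.3.1, the mm10 build and featureCounts 1.5.3, with no order of steps given in the sources used here. Per the labels' protocols, cDNA was amplified by 18 and then 4 cycles of PCR, and cells that passed a Gapdh test were pooled. Counts were used as deposited, with a lowest depth of 7751 UMIs and a median of 61193 UMIs per cell, and no cell was removed. Intervals and limits cover counting error only.

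Cells were clustered without the 8 members (300 variable genes, 15 principal components, 20 neighbours, Leiden resolutions 0.5 and 0.2) in Python 3.11.15 with NumPy 2.4.6, SciPy 1.17.1, scikit-learn 1.9.0, igraph 0.11.9 and leidenalg 0.10.2. Counts were summed per library, or per library and class with at least 10 alpha cells, and tested with edgeR 4.0.16 (quasi-likelihood, TMM, adjusted p threshold 0.05) over all genes that passed its filter on low counts. DESeq2 1.42.0, both in R 4.3.3, no filter, a replicate block, leaving out each library and, added after seeing the data, sums without the immune-like cells were the alternatives. In simulated data with 200 genes changed 4-fold, edgeR recovered 74% of them for implanted STZ against controls (14967 genes) and 19.5% for day 12 against controls (16874 genes). For day 12 against the other implanted times it recovered 46.5% (16796 genes). The simulation gave every gene the same spread and changed only well-counted genes. The members differed more between the day 12 libraries than that spread, so these rates do not describe them. Shares of cells were tested by exact permutation over libraries.

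The replicate number is also given as a batch in the labels, which do not say that a batch is shared between groups. Over 8091 genes, deviations of same-numbered libraries from their group means correlated at 0.329 between Control and STZ_D12, 0.420 between Control and STZ_M2_NoIns and -0.138 between Control and P12. The members, the gene lists and the day 12 comparisons were chosen with earlier results of these data known. The clustering resolutions, the naming rule, the X letters, the added macrophage genes shown for the P3 well and the plasma-cell genes were chosen after values were seen. By rule, the genes named were the 8 members, up to 6 called genes per list and comparison, and the 10 genes most like each sum; marker genes named for the high cells were chosen after their values were seen. Promoters are from RefSeq, GRCm38.p6. Files of raw reads were not analysed here.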

Additional observations from a re-analysis of the deposited data

Results flagged for a closer look

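In the 8 implanted STZ libraries, 11 values were tested for a library far from the rest, and all 11 had STZ_D12_1 as the highest, with a gap to the next library larger than Dixon's 95% critical value for 8 samples allows. For normally distributed values chance flags about 1 in 20 such groups, and the 11 values are not independent, since they come from the same cells. That rate does not apply here. The genes were chosen with results of these data known, and the values are far from normal. Cd74, for example, had a median of 5.30 CPM and a highest value of 688. The flags therefore only describe where the values lie. The levels in STZ_D12_1 were 688 CPM for Cd74, 687 for H2-Aa, 744 for H2-Ab1 and 650 for H2-Eb1. The myeloid members stood at 984 CPM for Lyz2, 259 for Ctss, 61.9 for Csf1r and 320 for C1qb. Class II cells were 16.1% of its cells, and after thinning 83.1% of its endocrine cells had a class II UMI and 75.3% a myeloid UMI. The test looks only at the highest and the lowest library of each value. STZ_D12_2, the second library of the same time, was neither in any of the 11, so it could not be flagged.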

How the results depend on the processing

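With DESeq2 in place of edgeR the genes called in all-cell sums were 2480 for implanted STZ against controls, 814 for day 12 against controls, 60 for day 12 against the other implanted times and 280 for P3 against controls, and in class sums 549 and 197 in beta cells (implanted, day 12) and 2 in alpha cells. Without the low-count filter they were 1545, 677 and 509 for the last 3 all-cell comparisons, and 464, 275 and 13 in class sums. With the replicate block they were 274 (implanted), 85 (day 12 against other times), 13 (P3) and 72 (beta, implanted). Members called for day 12 against controls were 2 with DESeq2, 8 without the filter, 6 with the block and 4 without the immune-like cells, and against the other implanted times 4, 8 and 7 under the first 3. For P3 they were 8 without the filter and 3 with the block, and for beta cells at day 12 they were 3 without the filter. Leaving out 1 library at a time, genes called ran from 305 (without Control_1) to 2271 (without STZ_M9_1) for implanted STZ, 39 (without Control_3) to 384 (without STZ_D12_2) for day 12 against controls, 1 to 380 against the other times, 1 to 5 for P3, 106 to 411 and 30 to 46 in beta cells and 0 to 0 in alpha cells. Members called ran from 0 to 8 for both day 12 comparisons and 0 to 1 in beta cells at day 12, and were 0 in the other comparisons. Where a direction turned, log2 differences over left-out libraries reached from the values next given up to 15.90 (Lyz2), 6.27 (Csf1r) and 14.28 (C1qb) for day 12 against controls and 5.58 (Csf1r) against the other times, 9.39 (Lyz2), 7.76 (Ctss) and 3.79 (Csf1r) in beta cells at day 12, and down to -4.76 (H2-Aa) and -4.87 (H2-Ab1) in P3. The values of 15.90, 14.28, 9.39 and 7.76 are without Control_1, where no control had a UMI of the gene, and are no bound. Directions turned without STZ_D12_1 for Lyz2 (-0.55), Csf1r (-0.87) and C1qb (-1.48) against controls, Csf1r (-1.62) against other times, and Lyz2 (-3.41), Ctss (-1.93) and Csf1r (-1.96) in beta cells, and without Control_1 for H2-Aa (0.24) and H2-Ab1 (0.24) in P3. Shares of class II cells differed by 0.185 to 15.7 points at day 12 and 0.698 to 2.99 for implanted STZ, and endocrine shares by 9.74 to 79.9 and 5.43 to 17.2. A hormone limit of 300 gave 80.4% and one of 3000 gave 19.6%. Without the cells above a limit, added after seeing the data, endocrine shares differed by 44.4 points at day 12 and 14.5 for implanted STZ. The other member log2 differences kept their sign, with 114 on the same side of the threshold and 53 newly past it over other settings, and 271 and 20 over left-out libraries. The cause of these moves was not tested.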
